A study of Mus musculus with 4 samples.

Results

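The genes described are regulators of chromatin and of transcription elongation. They encode parts of the MLL complex, AF4, ENL and other elongation factors, DOT1L and its partners, Polycomb complexes and demethylases. AF4 and ENL are among the proteins that MLL is fused to in leukemia. The genes were chosen by name, 34 in all, and 31 of them were measured among 12394 genes on the array. Each gene was read from the probe set whose mean log2 value over the 4 arrays was highest, among those that the platform annotation gives to 1 gene symbol. Aff3, Dot1l and Rbbp5 had no such probe set and are not analysed here. Of the 31, 15 belong to the MLL and elongation subset, 14 to the Polycomb subset, and the demethylases Kdm6a and Jmjd1c to neither.

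Both groups were marrow cells from Mll-AF4stop knock-in mice, in which a fusion of MLL to AF4 is kept silent until Cre acts on the allele. The mice had been given 5-FU, which kills dividing cells, 5 days before their marrow was infected ex vivo with a Cre-GFP retrovirus or with a control retrovirus (MIG). GFP+ cells were sorted 2 days after that and kept for 14 days with cytokines for lymphoid progenitors. Each group had 2 arrays, and values are listed below with replicate 1 before replicate 2. The series' design text names the control virus MIG-Cre and the sample labels name it GFP-control; the sample labels were followed, and Cre itself and the active fusion cannot be told apart. Strain background, age, sex and number of mice are not given in the sources used here. Nor is it stated whether the 2 arrays in a group were separate cultures, so the spread between arrays may be technical. Each error after ± is the moderated standard error of limma. It draws a gene's own spread between arrays toward that of genes of similar intensity. The ordinary two-sample error was 0.017 for Cbx7 and 0.53 for Phc2, where limma gave 0.11 and 0.34. In such bulk RNA, fewer cells of a type and less RNA per cell cannot be told apart.

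MLL, encoded by Kmt2a, places methyl groups on histone H3 at active genes and keeps HoxA genes on in blood progenitors. In MLL-AF4 leukemia the chromatin-binding end of MLL is joined to AF4, a scaffold of the elongation machinery that releases paused RNA polymerase and works beside the methyltransferase DOT1L. Polycomb complexes act on many of the same genes in the opposite sense: PRC2 methylates histone H3, and PRC1 reads that mark and adds ubiquitin to histone H2A.

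The group means of most of these regulators lay close together, but the intervals were wide. The lowest differences were those of Psip1 and Ezh2, which were 1.72-fold and 1.63-fold lower in Cre-GFP on their chosen probe sets. None of the 31 passed the threshold adjusted over all 12394 genes, and neither did any other gene (0% called by limma at an adjusted p of 0.05, with 600 genes at an unadjusted p under 0.05, and 2 called by an ordinary two-sample test). Without control 1 or without control 2, 135 and 34 genes were called, with 0 of the 31 among them. At an unadjusted p under 0.05 the count was 2 of 31 (6.45%), and the share of all genes was 4.84%, so the count lay near that of the array as a whole. Both genes were lower in Cre-GFP, as were 2.53% of all genes at that p, and 0 of the 31 were higher at it, against 2.31% of all. By group means 17 of the 31 were higher in Cre-GFP (50.1% of all genes) and 14 lower, with a median log2 difference of 0.0050, and the sign of 17 turned when some single array was left out. The median size of a difference, regardless of sign, was 0.11 among them and 0.10 among all genes. The 95% interval lay within −1 to 1, a 2-fold change either way, for 29 of the 31 genes and 94.3% of all genes. It lay within −0.5 to 0.5 for 9 of the 31 (29%), against 54.9% of all genes. For most of the 31, a difference larger than 0.5 in size could therefore not be excluded. The shares of 29% and 54.9% compare genes of unlike brightness. Of the 31, 93.5% lay above the dimmest 40% of genes, against 60% of all genes. The median half-width of the interval was 0.43 among the 31 and 0.37 among all genes, and the part of brightness in this was not tested.

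**Figure D1:**
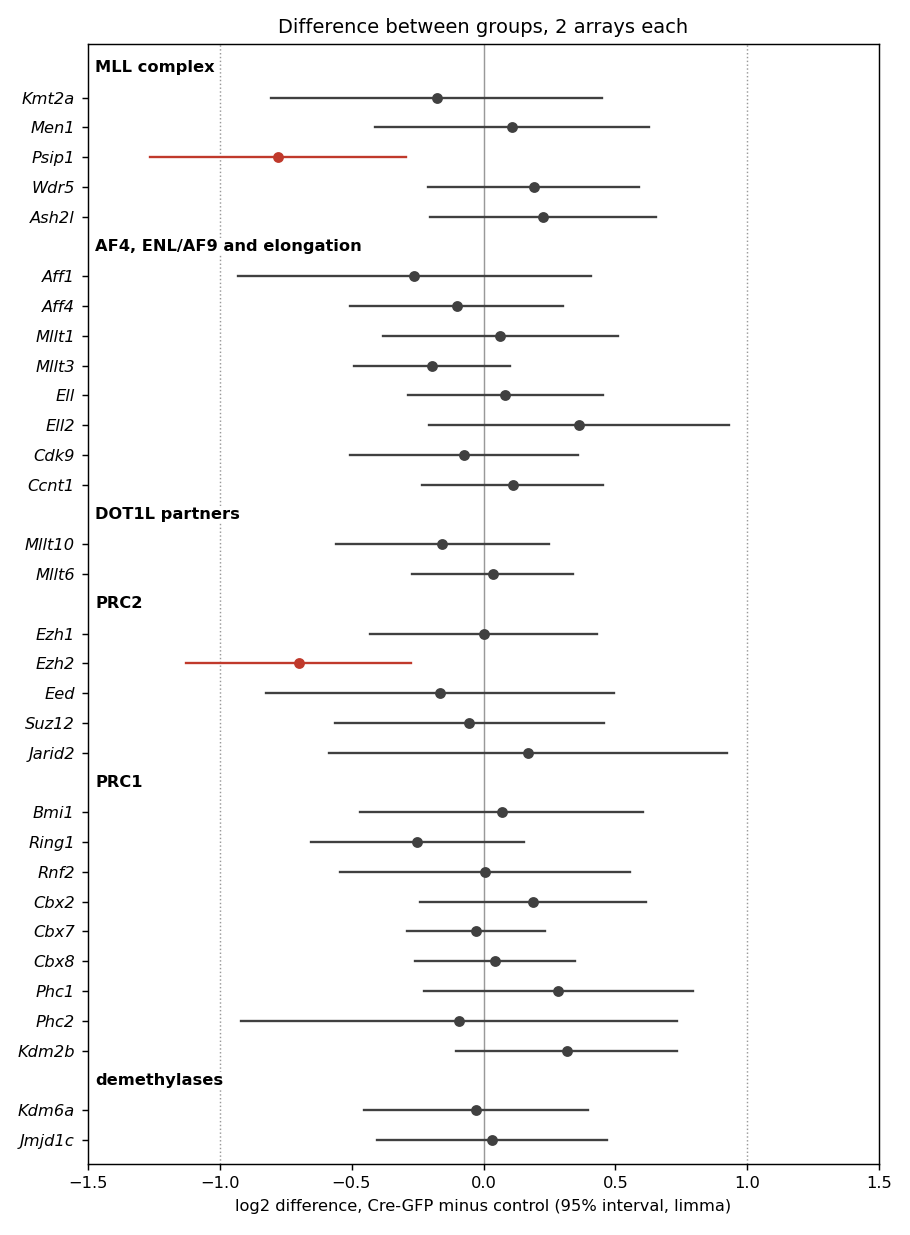
Log2 difference, Cre-GFP minus control, with its 95% interval from limma for each of the 31 genes, grouped by role, from 2 arrays per group. Psip1 and Ezh2, in red, are the 2 genes with an unadjusted p under 0.05, and the intervals of the other 29 genes include 0 and stay within the dotted lines at −1 and 1.

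Within the MLL complex, Psip1 stood apart. Psip1 (LEDGF) is the chromatin-binding protein that, with menin, holds MLL and its fusions on DNA. Its brighter probe set gave log2 values of 8.74 and 9.03 on the Cre-GFP arrays against 9.80 and 9.53 on the controls. Both Cre-GFP arrays lay below both control arrays. The log2 difference was −0.78 ± 0.20 (SE, n = 2 per group), with a 95% interval of −1.26 to −0.30 and an adjusted p of 0.65 in limma. Among all genes 190 had a difference at least as large in size. The second Psip1 probe set differed by −0.21 ± 0.25 with overlapping groups, and the mean of both gave −0.49, so the size of the difference depended on the probe set.

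Kmt2a itself gave 8.73 and 8.05 in Cre-GFP against 8.66 and 8.47 in control, and its difference of −0.18 ± 0.26 was smaller than the gap between the Cre-GFP arrays. Without the second Cre-GFP array it was 0.16. Whether the probe sets of Kmt2a and Aff1 lie inside the fusion was not analysed here, so they do not check its activation. Men1, menin, gave 8.95 and 8.59 against 8.83 and 8.49, a difference of 0.11 ± 0.21. Wdr5 and Ash2l, subunits of the core that all MLL-type methyltransferases share, stood slightly higher in both Cre-GFP arrays. Wdr5 gave 8.85 and 8.81 against 8.59 and 8.70 (0.19 ± 0.16), and Ash2l 8.34 and 8.61 against 8.22 and 8.28 (0.23 ± 0.17). The second probe sets of Wdr5 and Ash2l differed by −0.03 and 0.02. Neither difference passed, and groups that do not overlap with Cre-GFP the higher were found for 15.2% of all genes.

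No AF4 or elongation gene was called. Of 8 measured, 4 were higher and 4 lower, between −0.26 and 0.36, and none reached an unadjusted p under 0.05. Aff1 (AF4), the natural form of the partner in the fusion, gave 9.31 and 8.54 in Cre-GFP against 9.18 and 9.19 in control. The second Cre-GFP array alone was low, and the difference of −0.26 ± 0.27 became 0.12 without it. Aff4, the related scaffold found in most elongation complexes of this kind, gave 7.94 and 8.15 against 8.11 and 8.19 (−0.10 ± 0.16).

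Mllt1 (ENL) and Mllt3 (AF9), the paired readers of acetylated histones that bind both AF4 and DOT1L, differed by 0.06 ± 0.18 and −0.20 ± 0.12. Mllt1 gave 7.99 and 7.72 against 7.93 and 7.66, so the replicates lay further apart than the groups. Mllt3 was dim, at 5.55 and 5.55 against 5.63 and 5.86, and was 1 of 2 members, with Cbx7, among the dimmest 40% of genes. Its groups did not overlap, as was so in this direction for 14.9% of all genes, and its difference was −0.08 without the second control array and −0.31 without the first. Ell2, an elongation factor known for its part in antibody-secreting cells, had the highest difference of the 31, 0.36 ± 0.23. It gave 8.13 and 8.67 against 8.18 and 7.90, so the first Cre-GFP array lay between the control arrays, and without the second Cre-GFP array the difference was 0.09. The related factor Ell gave 7.45 and 7.27 against 7.21 and 7.35 and differed by 0.08 ± 0.15.

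Cdk9 and Ccnt1, the kinase and cyclin of the factor P-TEFb that releases paused polymerase, gave 9.71 and 9.90 against 9.79 and 9.96, and 6.98 and 6.79 against 6.84 and 6.71. Their differences were −0.07 ± 0.18 and 0.11 ± 0.14, with overlapping groups. Mllt10 (AF10) and Mllt6 (AF17), cofactors of DOT1L, differed by −0.16 ± 0.17 and 0.03 ± 0.12. Mllt10 gave 8.31 and 8.49 against 8.53 and 8.59, groups that just failed to overlap, and Mllt6 gave 6.66 and 6.73 against 6.61 and 6.70, which did overlap.

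In PRC2, Ezh2 was lower in Cre-GFP, while on their chosen probe sets the differences of its partners lay within the spread between arrays. Ezh2 is the main catalytic subunit of PRC2 in dividing cells and is needed for early B cell development. Its single probe set gave 10.16 and 10.05 on the Cre-GFP arrays against 10.68 and 10.94 on the controls. Both Cre-GFP arrays lay below both control arrays, by more than either same-group gap of 0.11 and 0.26. The difference was −0.70 ± 0.17 (SE, n = 2 per group), with a 95% interval of −1.13 to −0.27 and an adjusted p of 0.64 in limma. Leaving out single arrays gave −0.57 to −0.83. Among all genes 239 had a difference at least as large in size.

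Ezh1, the second catalytic subunit, which prevails in resting cells, gave 7.79 and 7.90, between the control values of 7.68 and 8.004, and differed by 0.00040 ± 0.18. Eed, which binds the PRC2 mark, gave 9.10 and 9.71 against 9.36 and 9.79 (−0.16 ± 0.27). Suz12, the scaffold subunit, gave 10.40 and 10.67 against 10.39 and 10.80 (−0.05 ± 0.21), and its 6 probe sets ranged from −0.25 to −0.05. Only on the Suz12 probe set at −0.25 did the groups not overlap, with Cre-GFP the lower. On the chosen probe sets of Eed and Suz12, arrays of the same group lay further apart than the group means did. Jarid2, an accessory subunit that helps bring PRC2 to its targets, gave 10.87 and 10.28 against 10.76 and 10.05, with a difference of 0.17 ± 0.31. Its 3 probe sets differed by 0.17 to 0.46, and on those at 0.22 and 0.46 both Cre-GFP arrays lay above both controls.

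The promoter windows of Ezh2, its paralogue Ezh1 and its partner Suz12 are shown because E2F factors, which drive genes of the dividing cell, are known regulators of Ezh2. Each runs from 250 bases before to 50 bases after the transcript start, 5′ to 3′, from RefSeq on GRCm38.p6. The windows are chr6:47594981-47595280, minus strand for Ezh2, chr11:101226414-101226713, minus strand for Ezh1 and chr11:79992856-79993155, plus strand for Suz12. Capitals mark an E2F motif.
Ezh2: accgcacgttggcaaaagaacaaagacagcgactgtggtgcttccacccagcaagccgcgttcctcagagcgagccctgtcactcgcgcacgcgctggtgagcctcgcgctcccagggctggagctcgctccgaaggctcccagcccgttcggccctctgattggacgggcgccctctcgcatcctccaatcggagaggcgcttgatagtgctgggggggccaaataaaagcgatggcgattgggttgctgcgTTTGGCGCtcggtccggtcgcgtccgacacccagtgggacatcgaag
Ezh1: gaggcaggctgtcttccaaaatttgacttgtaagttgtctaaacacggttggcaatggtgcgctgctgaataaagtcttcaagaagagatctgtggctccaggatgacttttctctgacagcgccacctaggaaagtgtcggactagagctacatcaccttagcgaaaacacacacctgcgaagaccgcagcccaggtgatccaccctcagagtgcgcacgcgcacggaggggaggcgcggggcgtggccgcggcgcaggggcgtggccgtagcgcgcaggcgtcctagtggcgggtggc
Suz12: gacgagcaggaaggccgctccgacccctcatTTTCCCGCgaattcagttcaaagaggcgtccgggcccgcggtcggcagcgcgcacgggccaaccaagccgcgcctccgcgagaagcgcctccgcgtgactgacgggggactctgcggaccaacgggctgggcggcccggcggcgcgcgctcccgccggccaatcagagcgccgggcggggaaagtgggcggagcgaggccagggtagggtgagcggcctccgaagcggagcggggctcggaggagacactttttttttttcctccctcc

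The E2F motif was searched as TTTCCCGC or TTTGGCGC on both strands. Of the 41 windows that RefSeq gives for 28 of the 31 genes, 2 held it, those of Ezh2 and Suz12, and of all 32851 windows 1.56% did. In Ezh2 the match begins at base 4 of the transcript and in Suz12 at base −219. The GC box GGGCGG stood in 30 of the 41 windows and in 35.7% of all, CCAAT in 20 and in 37.4%, and the E-box CACGTG in 5 and in 7.15%, each on both strands. Windows of 1 gene can overlap, as those of Men1 do, so the same letters can be counted more than once. The median number of CG dinucleotides in a window was 24 for the 31 genes' windows and 7 for all windows. The match reads TTTGGCGC in Ezh2 and TTTCCCGC in Suz12. A match describes the letters in this window and is not a measured binding site.

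No PRC1 gene was called either. Of 9 measured, 6 were higher and 3 lower, from −0.25 to 0.32, and none reached an unadjusted p under 0.05. Rnf2 (RING1B) and Ring1 are the ligases that put ubiquitin on histone H2A. Rnf2 gave 8.30 and 8.84 against 8.51 and 8.63, a difference of 0.0050 ± 0.22, and its 5 probe sets ranged from −0.30 to 0.05. On the Rnf2 probe set at −0.30 alone the groups did not overlap, with Cre-GFP the lower. Ring1 gave 6.40 and 6.02 against 6.39 and 6.53, or −0.25 ± 0.16, and only the second Cre-GFP array was low. Without that array the difference was −0.06.

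Bmi1, the PRC1 subunit that blood stem cells need to renew themselves, gave 9.25 and 9.76 against 9.46 and 9.42 (0.07 ± 0.22). The Cre-GFP arrays lay on either side of the controls. The chromobox proteins, which read the PRC2 mark, differed by 0.19 ± 0.17 for Cbx2, −0.03 ± 0.11 for Cbx7 and 0.05 ± 0.12 for Cbx8. Cbx2 gave 8.96 and 8.80 against 8.60 and 8.79, so its groups did not overlap by a narrow gap. Cbx7 gave 5.97 and 5.93 against 5.98 and 5.98, and Cbx8 6.67 and 6.76 against 6.66 and 6.68, the narrowest ranges over the 4 arrays among the PRC1 genes.

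Phc1 and Phc2, which link PRC1 complexes into larger bodies, differed by 0.28 ± 0.21 and −0.09 ± 0.34. Phc2 gave 11.43 and 10.81 against 11.64 and 10.78, so the first array of each group was higher than the second by far more than the groups differed. Its second probe set differed by 0.07. Phc1 gave 8.34 and 8.12 against 8.17 and 7.72, with overlapping groups, and its difference was 0.06 without the second control array and 0.51 without the first. Kdm2b, the protein that brings a variant PRC1 to unmethylated CpG islands, had the highest difference of the Polycomb subset. It gave 9.33 and 9.37 against 9.14 and 8.94, with both Cre-GFP arrays above both controls, and differed by 0.32 ± 0.17 (95% interval −0.10 to 0.73, adjusted p = 1 in limma).

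The group means of the demethylases differed little. Kdm6a (UTX), which removes the PRC2 mark, gave 8.68 and 8.47 against 8.67 and 8.54, or −0.03 ± 0.17. Jmjd1c, a demethylase-family protein that leukemia cells depend on, gave 10.40 and 10.34 against 10.48 and 10.19, or 0.03 ± 0.18. In both genes the ranges of the groups overlapped.

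**Figure D2:**
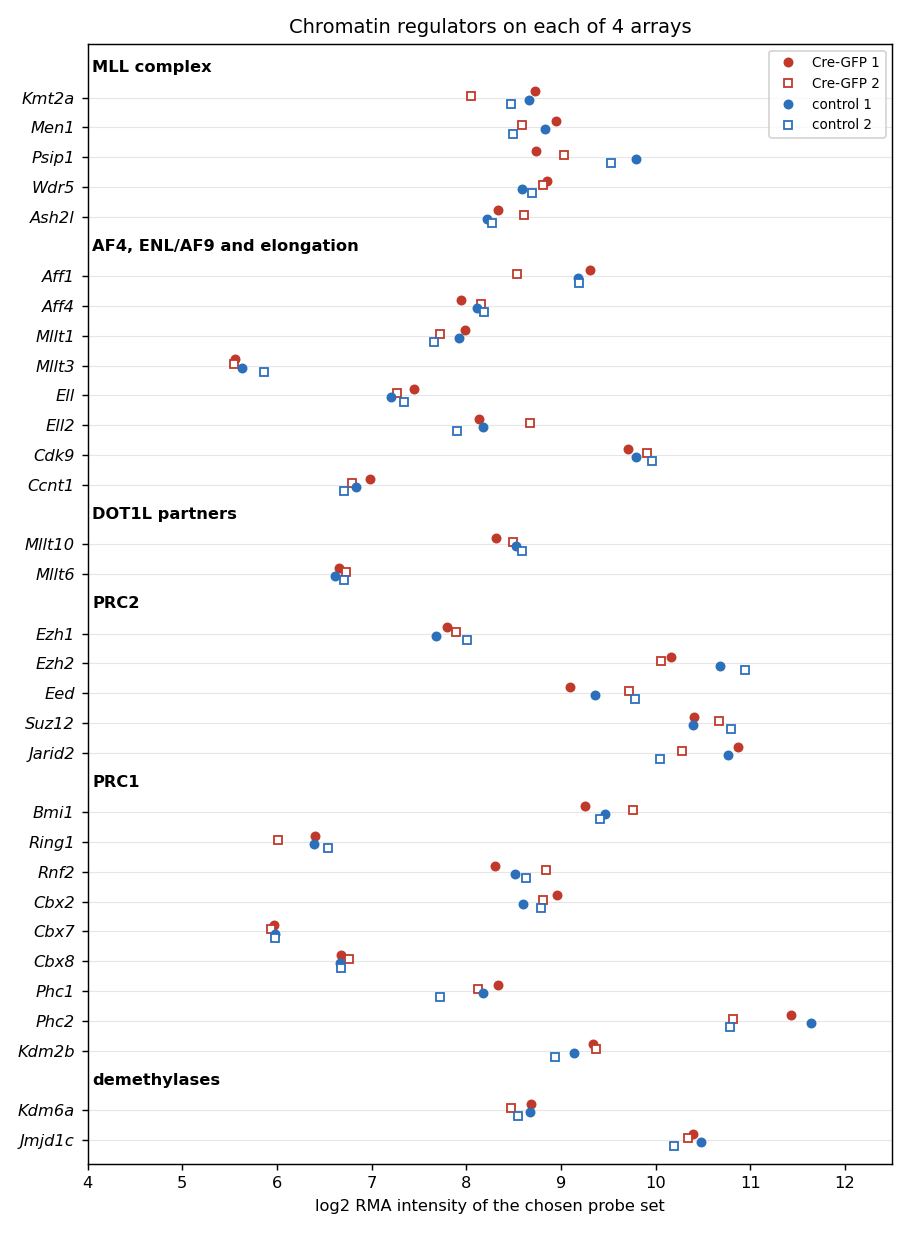
Log2 RMA intensity of each gene's chosen probe set on the 4 arrays, with Cre-GFP in red, control in blue, replicate 1 filled and replicate 2 open; points are shifted slightly up and down within a gene so that all show. Psip1 and Ezh2 have both red points to the left of both blue ones, whereas for Phc2 and Jarid2 the points divide by replicate and not by group.

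Of the 31 genes, 9 had groups that did not overlap (29%), against 30% of all genes. Higher in both Cre-GFP arrays were 4 genes, Wdr5, Ash2l, Cbx2 and Kdm2b, and lower were 5, Psip1, Ezh2, Mllt3, Mllt10 and Cbx7. For 15 of the 31 (48.4%) the difference between groups was smaller than either gap between arrays of 1 group, against 47.2% of all genes. Several differences that kept their sign still moved in size when 1 array was left out. Without the second Cre-GFP array Ell2 was 0.09 and without the first 0.63, Ring1 was −0.06 and −0.44, and Ash2l 0.09 and 0.36. In the same way Ccnt1 lay between 0.02 and 0.20, Cbx2 between 0.09 and 0.28, Mllt10 between −0.24 and −0.07, Cbx7 between −0.04 and −0.01 and Cbx8 between 0.0013 and 0.09. Psip1, Ezh2, Wdr5 and Kdm2b moved less in proportion, from −0.92 to −0.63, −0.83 to −0.57, 0.13 to 0.24 and 0.22 to 0.41.

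Paralogues were compared within each array, since the ratio of 2 genes is not changed by the scale of the array. In 10 such pairs, Ezh2 over Ezh1 had the largest difference between groups. This log2 ratio, set to a mean of 0 over the arrays, was −0.24 and −0.46 on the Cre-GFP arrays against 0.38 and 0.32 on the controls, a difference of −0.70. With 2 arrays against 2, the exact two-sided permutation test cannot go below p = 0.333, which is what Ezh2 over Ezh1 gave (0.833 after Benjamini-Hochberg adjustment over the 10 pairs). Since Ezh1 itself differed by 0.00040, this ratio repeats the difference of Ezh2 and adds no separate result. Mllt10 over Mllt6, Cbx2 over Cbx7 and Cbx8 over Cbx7 also had groups that did not overlap, with differences of −0.19, 0.21 and 0.07. Each gave the same exact p of 0.333, and Cbx7 stands in both Cbx pairs. Groups that do not overlap were found for 30% of all single genes, and the pairs were chosen after the values had been seen. The other pairs overlapped: Phc1 over Phc2 differed by 0.38, Ell2 over Ell by 0.28, Mllt1 over Mllt3 by 0.26, Ring1 over Rnf2 by −0.26, Aff1 over Aff4 by −0.16 and Cbx2 over Cbx8 by 0.14.

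The medians of the MLL and elongation subset and of the Polycomb subset both lay near 0. In each subset 8 genes were higher in Cre-GFP, of 15 and of 14, and 1 had an unadjusted p under 0.05. The median log2 difference was 0.03 in the MLL and elongation subset and 0.0027 in the Polycomb subset, beside a median of 2.8e-10 for all genes. The MLL median minus the Polycomb median was 0.03, and without 1 array at a time it lay between −0.11 and 0.12. With each gene centred on its own mean, the MLL subset's medians were −0.02 and −0.04 on the Cre-GFP arrays against 0.0075 and 0.03 on the controls. The Polycomb subset's were −0.0091 and 0.04 against −0.02 and 0.0070. The sign of the MLL subset's shift thus depended on whether the median was taken over differences or within arrays. No test was made, since the genes were chosen with results known.

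**Figure D3:**
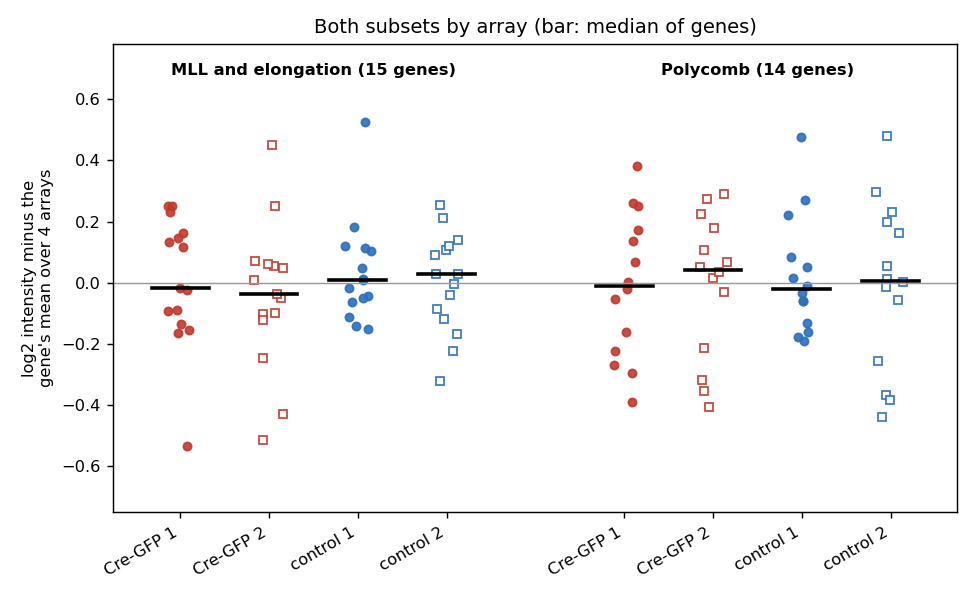
Each point is 1 gene's log2 intensity on 1 array minus that gene's mean over the 4 arrays, for 15 MLL and elongation genes (left) and 14 Polycomb genes (right); bars are medians over genes. The lowest median is −0.04 (MLL and elongation) and the highest 0.04 (Polycomb), both on the second Cre-GFP array.

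Several probe sets read 21 of the 31 genes, 61 probe sets in all for the 31. For 11 of the 21 every probe set gave the same sign, and for 10 the signs were mixed, among them Wdr5, Men1, Eed and Rnf2. Kmt2a differed by −0.18 and −0.10 on its 2 probe sets and Aff1 by −0.26 to −0.04 on 3. Of the 61, 2 had an unadjusted p under 0.05 in limma, the chosen probe sets of Ezh2 and Psip1 already described. The share of all probe sets with 1 symbol at that p was not worked out, so this count adds no separate result. After adjustment over all those probe sets 0 of the 61 passed.

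**Figure D4:**
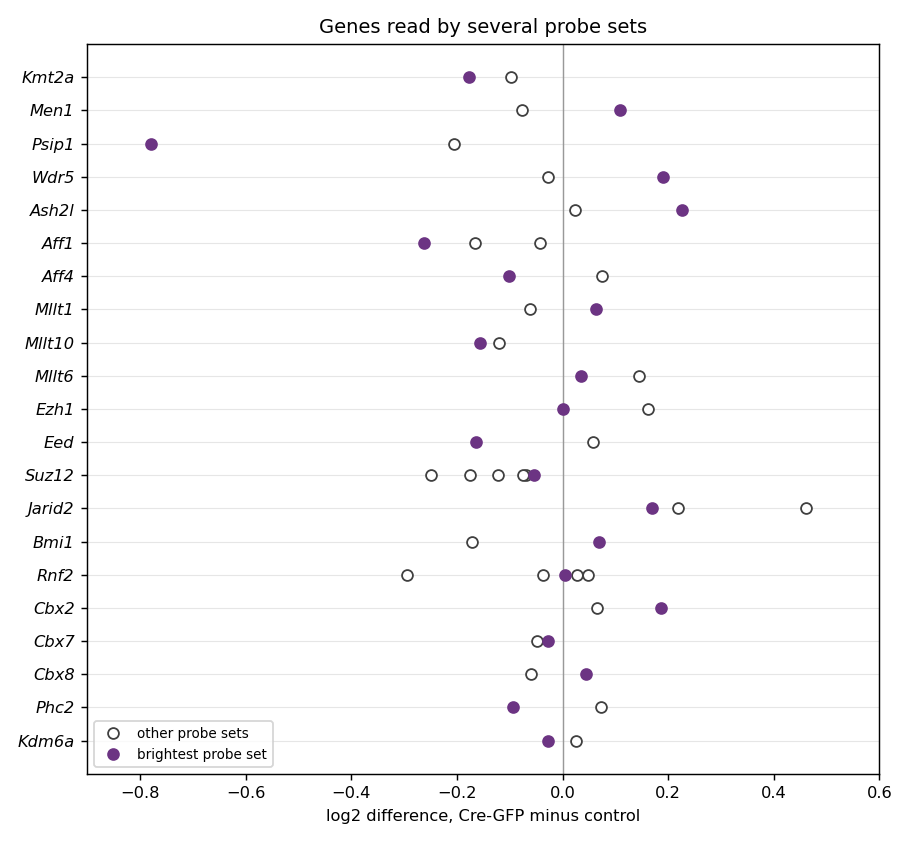
Log2 difference, Cre-GFP minus control, for every probe set of the 21 genes with more than 1; filled points are the brightest probe set, which represents the gene, and open points the others. Both Psip1 points lie below 0 but far apart, and Rnf2 spans both signs.

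By list medians, other genes of the same pathways differed little too, though single genes differed more, with wide errors. Among other partners of MLL-type complexes 11 of 17 were measured, 5 higher and 6 lower, with a median of −0.03. Kmt2e, a distant MLL relative, differed by −0.36 ± 0.17 and Tasp1, the protease that cleaves MLL, by −0.58 ± 0.30. Setd1a and Paxip1 differed by 0.15 and −0.14. Of 21 measured elongation and pausing factors 13 were higher, with a median of 0.02. Ctr9, a subunit of the PAF complex, differed by 0.32 ± 0.21, Ccnt2 by −0.37 ± 0.25, the histone chaperone Supt6 by 0.39 ± 0.28 and Mepce by 0.20 ± 0.17. Of 18 other Polycomb genes 8 were higher, with a median of −0.02. Pcgf6, Mga and the dim Pcgf1, parts of variant PRC1 complexes, differed by 0.24, 0.32 and 0.15, and Usp7 by 0.16. None in the 3 lists reached an unadjusted p under 0.05. The HoxA program list (Hoxa5, Hoxa7, Hoxa9, Hoxa10 and Meis1) was drawn up with its values known, so its count is not a test. On the same arrays all 5 of its genes were higher at an unadjusted p under 0.05, against 2.31% of all genes in that direction. Their differences were 0.59 to 1.73, and 0 passed after adjustment.

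Lineage markers were read from the same arrays, and none passed after adjustment over all genes. Of 14 measured B lineage markers 12 were lower in Cre-GFP by group means (median log2 difference −0.33), and 4 of the 14 had an unadjusted p under 0.05, against 2.53% of all genes in that direction. Their summed linear intensity was 31334.3 to 31624.5 in Cre-GFP and 37759.4 to 43439.2 in control. Cd79b differed by −1.70 ± 0.43, Cd79a by −0.80 ± 0.21, Pou2af1 by −1.68 ± 0.49 and the B cell factor Ebf1 by −0.51 ± 0.16. Of 13 measured myeloid markers 11 were higher by group means, with a median of 0.55, and 4 of the 13 had an unadjusted p under 0.05, against 2.31% of all genes in that direction. Their sums were 4500.57 to 4530.86 for Cre-GFP and 1737.7 to 4861.36 for control, so these overlapped, and Itgam was below each array's 20th percentile. Mpo differed by 1.25 ± 0.15, Ctsg by 0.99 ± 0.15, Csf1r by 1.13 ± 0.34 and Prtn3 by 0.70 ± 0.26. Each of the 14 B lineage markers lay above the 20th percentile on at least 1 array. Of 7 measured T and NK markers 2, Cd3g and Cd8a, were below that percentile on every array, and the median difference was 0.0054. Cd3e was brighter, at 7.35 and 7.24 in Cre-GFP against 7.28 and 7.21 in control. Erythroid and megakaryocyte markers had a median of 0.04, and Ptprc, which all leukocytes carry, differed by 0.14 ± 0.20.

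Replication and mitosis genes, among which Ezh2 is often counted, had 6 of 16 measured members higher and 10 lower, with a median of −0.04. Their summed intensity was 41421.7 to 42486.3 in Cre-GFP and 40263.3 to 45510.6 in control, so the ranges overlapped. Rrm2 differed by −0.35 ± 0.21, Ccna2 by −0.30 ± 0.20, Birc5 by −0.28 ± 0.19 and Mcm3 by 0.64 ± 0.60, and none reached an unadjusted p under 0.05. The part of lineage makeup in the differences of Ezh2 and Psip1 was not tested.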

How the data were processed

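Total RNA, 20 ng per sample, was amplified with the NuGen Ovation system and hybridized to Affymetrix arrays, per the labels' protocols. The authors deposited 1 table of intensities for 22690 probe sets, made with RMA per the submitters' processing notes (version not given in the sources used here). Median intensity was 85.1 to 87.7 per array, correlations between arrays were 0.987 to 0.993, and 2 arrays per group limit the precision. The highest correlation, 0.993, was between the first Cre-GFP array and the first control array. Within Cre-GFP it was 0.992 and within control 0.990. RMA normally brings arrays to 1 distribution, which hides any change common to most genes, and understates differences of dim genes.

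The deposited intensities were put on the log2 scale without further normalization. The platform annotation gave 1 symbol to 20393 probe sets, several to 691 and none to 1606; only the first were used. The two-sided test was that of limma 3.58.1 under R 4.3.3, fitted by lmFit and eBayes with an intensity trend. Adjustment was by Benjamini-Hochberg over 12394 genes, with a threshold of 0.05. The procedure was tested on simulated data. Alternatives changed the probe set choice, dim genes, array scale, variance model, replicate number as a block and the arrays used. Genes and lists were chosen with earlier results of these data known; every measured member was named, and from each other list the 4 genes with the smallest p. The paralogue pairs, the promoters shown and the motifs searched were chosen after the values had been seen. Scan dates were not used here, so batches were not tested.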

Additional observations from a re-analysis of the deposited data

How the results depend on the processing

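No member passed over all genes under any of the 13 alternatives, and 13 of the 31 kept their sign in all of them, Ezh2 and Psip1 included. Ezh2 lay between −0.57 and −0.83, with adjusted p from 0.26 to 1. Psip1 lay between −0.49 (mean of its probe sets) and −0.92, with adjusted p from 0.39 to 1. Over all genes, 0 were called in limma (600 at an unadjusted p under 0.05), 2 by an ordinary two-sample test, 135 without control replicate 1 and 34 without control replicate 2, where the lone array is assumed to vary like the other group. The labels do not say that equal replicate numbers share an animal or culture. Deviations of same-numbered arrays correlated at 0.35 over genes, and the source of this correlation was not tested. With the replicate block in limma 0 genes were called, 952 had an unadjusted p under 0.05, and Ezh2 had an adjusted p of 0.56. In this balanced layout neither the block nor the variance model can change a difference, so that of Ezh2 was −0.70 by design. Leaving out 1 array likewise cannot turn the sign of a gene whose groups do not overlap, such as Ezh2 or Psip1.

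The median of the MLL and elongation subset was 0.00078 with the mean of probe sets, 0.049 without _x_at, _s_at and _a_at probe sets and 0.049 without the dimmest 40% of genes, and lay between −0.059 and 0.092 without 1 array at a time. That of the Polycomb subset was 0.045 without those probe sets and lay between −0.031 and 0.085 without 1 array, and the MLL minus Polycomb value lay between −0.11 and 0.12. The causes were not tested. Signs turned with the mean of probe sets for Bmi1 (−0.052), Cbx8 (−0.0073) and Rnf2 (−0.051), with quantile normalization for Ezh1 (−0.0033) and Rnf2 (−0.0059), with arrays centred on their medians for Ezh1 (−0.0048) and Rnf2 (−0.00018), and without _x_at, _s_at and _a_at probe sets for Kdm6a (0.026) and Phc2 (0.073). Leaving out single arrays turned 17 members. Their ranges were −0.64 to 0.12 for Aff1, −0.21 to 0.0021 for Aff4, −0.19 to 0.33 for Bmi1, −0.17 to 0.024 for Cdk9, −0.47 to 0.14 for Eed, −0.0100 to 0.17 for Ell, −0.16 to 0.16 for Ezh1, −0.18 to 0.52 for Jarid2, −0.11 to 0.18 for Jmjd1c, −0.13 to 0.078 for Kdm6a, −0.52 to 0.16 for Kmt2a, −0.069 to 0.28 for Men1, −0.071 to 0.20 for Mllt1, −0.010 to 0.079 for Mllt6, −0.52 to 0.34 for Phc2, −0.27 to 0.28 for Rnf2 and −0.26 to 0.15 for Suz12. Without _x_at, _s_at and _a_at probe sets Mllt3 and Ezh1 had no value, and without the dimmest genes Mllt3 and Cbx7 had none.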
